A study of Mus musculus with 2 samples.

Results

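The cells described here are the pigment cells of the embryonic mouse cochlea, labelled as intermediate cells and melanocytes, in single-cell RNA sequencing of cochleae at E16.5. They were chosen by their transcripts: Dct and Pmel together had to give at least 50 of every 10000 UMIs (unique molecular identifiers, each standing for 1 captured transcript) of a barcode. At least 1 UMI of Mitf, Mlana, Tyrp1 or Tyr was also needed, and no UMI of the epithelial gene Epcam. Barcodes had at least 1000 UMIs, at least 500 detected genes and at most 10% mitochondrial UMIs. The rule kept 66 of 15813 barcodes, 15 of 9373 from the mutant library and 51 of 6440 from the wild-type library.

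The mutant library came from Emx2Cre;Ptch1f/f embryos, in which Cre recombinase is driven from Emx2 and Ptch1 is floxed. Ptch1 encodes the receptor that holds Hedgehog signalling off when no ligand is bound. The reference library came from wild-type embryos, and both genotypes were on a mixed 129/SvEv and C57BL/6N background. Each library pooled 8 dissected, enzyme-digested cochleae. There was 1 library per genotype, so no difference has a replicate check and no test was run. Every interval below is an exact 95% interval, Poisson for levels and Clopper-Pearson for shares, and covers counting error only.

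Melanocytes arise from the neural crest, partly by way of Schwann cell precursors that travel along nerves. In the cochlea they settle in the lateral wall, where they become the intermediate cells of the stria vascularis, between the marginal and basal cells. In the mature stria the potassium channel Kcnj10 of these cells is needed for the endocochlear potential, the voltage that drives hair cell transduction. The pigment pathway runs in melanosomes: tyrosinase (Tyr) starts melanin synthesis, Dct and Tyrp1 act downstream of it, and Pmel forms the fibrils on which pigment is laid down. Mitf is the transcription factor that switches this programme on, and it binds E-box motifs such as CATGTG.

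Promoters of 4 pigment genes are printed to show the E-box letters to which the Mitf family is known to bind, close to genes that mark these cells. The sequences are from RefSeq on GRCm38.p6, run 5′ to 3′ on the gene's strand from 250 bases before the start site to 50 after it, and capitals mark CATGTG or its other-strand form CACATG. The Dct window is chr14:118052197-118052496 on the minus strand, the Tyr window is chr7:87493463-87493762 on the minus strand, the Tyrp1 window is chr4:80833963-80834262 on the plus strand, and the Trpm1 window is chr7:64153585-64153884 on the plus strand.
Dct: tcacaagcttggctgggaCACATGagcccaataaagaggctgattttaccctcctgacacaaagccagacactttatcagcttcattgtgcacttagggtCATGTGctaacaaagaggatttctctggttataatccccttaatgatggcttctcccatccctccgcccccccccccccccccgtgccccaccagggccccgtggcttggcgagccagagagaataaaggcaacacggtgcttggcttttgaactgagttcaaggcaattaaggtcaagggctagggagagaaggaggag
Tyr: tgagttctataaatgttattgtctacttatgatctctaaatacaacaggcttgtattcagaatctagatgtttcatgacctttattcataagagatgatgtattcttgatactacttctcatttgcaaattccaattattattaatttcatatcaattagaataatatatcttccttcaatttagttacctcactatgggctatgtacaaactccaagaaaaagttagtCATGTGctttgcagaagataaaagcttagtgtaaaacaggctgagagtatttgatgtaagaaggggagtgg
Tyrp1: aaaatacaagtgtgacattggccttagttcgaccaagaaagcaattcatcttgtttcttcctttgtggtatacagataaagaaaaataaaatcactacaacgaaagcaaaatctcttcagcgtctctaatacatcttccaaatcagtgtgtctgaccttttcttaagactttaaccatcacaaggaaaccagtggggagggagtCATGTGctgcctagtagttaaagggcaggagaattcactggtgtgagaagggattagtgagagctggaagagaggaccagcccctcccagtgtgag
Trpm1: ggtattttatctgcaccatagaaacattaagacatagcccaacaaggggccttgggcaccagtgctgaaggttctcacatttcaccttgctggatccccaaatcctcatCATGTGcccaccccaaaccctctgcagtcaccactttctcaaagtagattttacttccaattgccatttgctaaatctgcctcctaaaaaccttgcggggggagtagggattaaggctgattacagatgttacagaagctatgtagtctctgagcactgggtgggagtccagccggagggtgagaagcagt
The Dct window held 2 matches and each of the other windows 1. Of the 26 genes used by the rule (Epcam left out) or among the 20 named below for their ratio over other barcodes, 17 had a RefSeq promoter entry, with 23 windows. CATGTG was in 8 of these 23 windows (34.8%), which belonged to Dct, Mgll, Mt1, Trpm1, Tspan10, Tyr and Tyrp1, and in 4650 of all 32851 windows (14.2%). The longer form TCATGTG, in which the shorter motif is contained, was in 5 of the 23 windows (21.7%), those of Dct, Trpm1, Tspan10, Tyr and Tyrp1, and in 3.77% of all windows. CACGTG, the other common E-box, was in 5 of the 23 windows (21.7%) and in 7.15% of all windows. The 8 windows with CATGTG came from 7 genes, as Trpm1 has another window with a match that is not printed. Of these genes, Dct, Tyr and Tyrp1 chose the cells, and the others were picked by their ratio in the same data. The printed windows were taken from those with a match, and the shares of windows were not tested. A match describes letters and is not a measured binding site.

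The libraries differed in ways that touch what follows. The mutant matrix held 12326 barcodes and 100135532 UMIs and reached down to 500 UMIs per barcode, while the wild-type matrix held 6500 barcodes and 61130806 UMIs and stopped at 3352. Among barcodes that passed the filters the median was 8319 UMIs in the mutant and 7339 in the wild type. The sample descriptions name kit versions 3.2 for the mutant and 3.1 for the wild type, and the file headers name Cell Ranger 5.0.1 for the mutant and 6.0.0 for the wild type. Genotype, kit label and software version therefore cannot be told apart. Passing barcodes of the libraries had 18 cell barcode sequences in common, of which 0 were chosen in both. No chosen barcode fell in the mutant part of the depth range that the wild-type library lacks.

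The chosen barcodes were 0.160% of passing mutant barcodes (0.0896 to 0.264%) and 0.792% of passing wild-type barcodes (0.590 to 1.04%). At a UMI floor set at the wild-type minimum the mutant share was 0.202% and the wild-type share 0.792%. These are shares of captured barcodes after digestion and filtering, and a share of the tissue was not measured. The Epcam limit bore unevenly on them. It removed 10 mutant barcodes that had passed every other step, and 4 wild-type ones. Without it the mutant share was 0.267% (0.173 to 0.393%) and the wild-type share 0.854% (0.644 to 1.11%), so the wild-type share stayed the higher.

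The barcodes removed for Epcam were of several kinds. In the 10 mutant ones the lowest, median and highest Epcam counts were 1, 6 and 20 UMIs, and in the 4 wild-type ones they were 1, 15.5 and 38 UMIs. A single Epcam UMI removed 3 mutant barcodes and 1 wild-type barcode. The epithelial genes Oc90, Krt8, Krt18 and Cldn6 were all at 0 in 2 of the removed mutant barcodes and 1 of the removed wild-type ones. Dct and Pmel together gave a median of 194 UMIs per 10000 in the removed mutant barcodes and 64.5 in the removed wild-type barcodes.

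Barcodes near the Dct and Pmel limit were fewer in the mutant than in the wild type. Among barcodes that met every other step of the rule, the 3 mutant cells nearest the limit from above had 203, 209 and 214 UMIs per 10000, and the 3 mutant barcodes nearest from below had 24.4, 1.96 and 1.64. In the wild type the 3 cells nearest from above had 51.8, 96.4 and 118 UMIs per 10000, and the 3 barcodes nearest from below had 48.3, 47.8 and 40.0. The 10 mutant barcodes removed for Epcam lay from 82.0 to 364 per 10000, and the 4 wild-type ones from 55.3 to 171. The Epcam step therefore emptied part of the mutant range between 50 and 203. Between 10 and 50 per 10000 lay 1 mutant and 7 wild-type barcodes that met every other step. Among all barcodes that passed the depth and mitochondrial filters, 2 mutant and 79 wild-type ones lay in that range. Of these, 0 mutant and 24 wild-type ones had no UMI of Mitf, Mlana, Tyrp1 or Tyr, and 1 mutant and 48 wild-type ones had such a UMI together with Epcam.

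**Figure D1:**
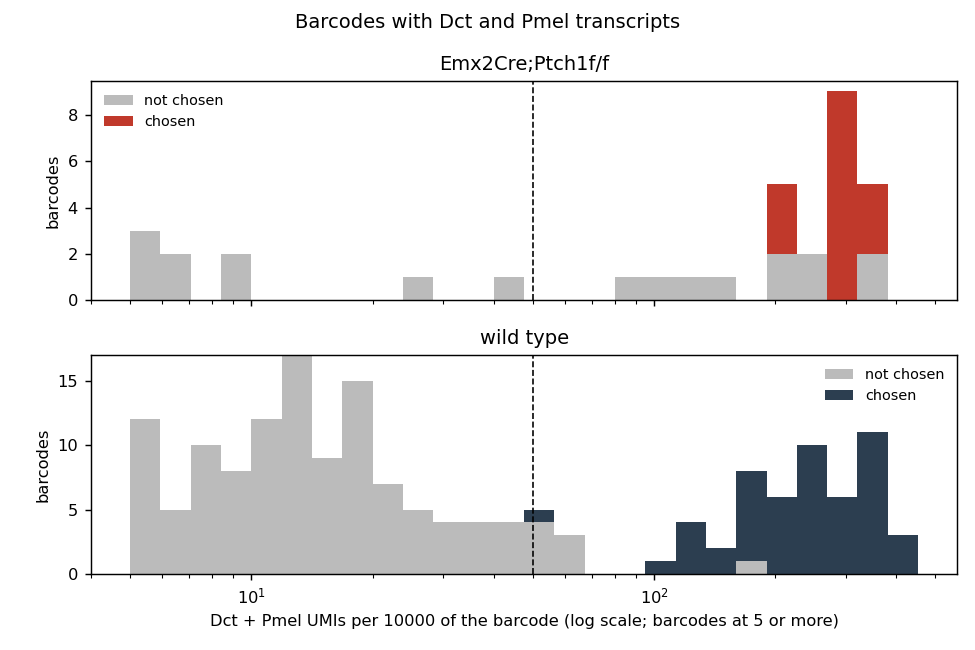
Histogram of barcodes by Dct plus Pmel UMIs per 10000 (log scale, barcodes at 5 or more; y axis, number of barcodes) in the mutant (top) and wild-type (bottom) library, with chosen barcodes coloured, others grey, and the limit of 50 dashed. Chosen mutant cells start at 203 per 10000, while chosen wild-type cells reach down to 51.8 with barcodes just under the limit. Grey mutant barcodes above the limit, from 82.0 per 10000 up, are those removed for Epcam.

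Single cells were deep enough to be read one by one. UMIs per chosen cell had a lowest, median and highest value of 5194, 12455 and 35775 in the mutant, and of 3498, 9538 and 20496 in the wild type. The median number of genes was 3704 in the mutant and 3195 in the wild type, and the median mitochondrial share was 4.06% in the mutant and 2.58% in the wild type. Summed over cells there were 206047 mutant and 520518 wild-type UMIs, so that 1 UMI equalled 4.85 CPM (counts per 1e6 UMIs of the sum) in the mutant and 1.92 CPM in the wild type. With the usual limit of 3 counts, which is not the upper bound of the exact interval, a count of 0 allows a level of up to 14.6 CPM in the mutant and 5.76 CPM in the wild type. The deepest mutant cell held 17.4% of the mutant sum, and the deepest wild-type cell 3.94% of the wild-type sum.

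The genes that chose the cells are given as a description. Dct, dopachrome tautomerase, lies at chr14:118012790-118052244 on the minus strand. Its lowest, median and highest values were 152, 191 and 243 UMIs per 10000 in mutant cells and 32.7, 186 and 325 in wild-type cells. The mutant cells lay within the wild-type range, and wild-type cells reached lower and higher. Pmel, the fibril protein of the melanosome, had 39.6, 99.6 and 133 UMIs per 10000 in mutant cells and 16.6, 62.0 and 131 in wild-type cells, with ranges that overlapped over most of their length. Summed Dct was 19005 CPM in mutant and 17715 CPM in wild-type cells, and summed Pmel was 8634 CPM in mutant and 6511 CPM in wild-type cells.

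Of the rule's 4 companion genes, Tyr and Mitf had much the same summed level in both libraries, and Mlana and Tyrp1 differed in opposite directions. Tyr, the enzyme that starts melanin synthesis, was at 956 CPM (827 to 1099) in mutant and 1026 CPM (941 to 1117) in wild-type cells. Mitf was at 510 CPM (417 to 617) in mutant and 455 CPM (399 to 517) in wild-type cells. Mlana, a melanosome membrane protein that binds Pmel, was at 330.0 CPM (256 to 418) in mutant and 749 CPM (677 to 827) in wild-type cells. Tyrp1, tyrosinase-related protein 1, was at 218 CPM (159 to 292) in mutant and 82.6 CPM (59.8 to 111) in wild-type cells.

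Cell by cell, Mlana had a lowest, median and highest value of 0, 3.85 and 6.91 UMIs per 10000 in mutant cells and 0, 6.91 and 21.1 in wild-type cells. All mutant cells lay at or below the wild-type median, and the ranges overlapped. Tyrp1 had 0, 1.54 and 10.0 UMIs per 10000 in mutant cells and 0, 0 and 12.7 in wild-type cells. Its UMIs came from 12 of 15 mutant cells and from 16 of 51 wild-type cells. On the log2 scale with 10 CPM added, used for every ratio below, mutant over wild type was -1.16 for Mlana and 1.30 for Tyrp1.

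**Figure D2:**
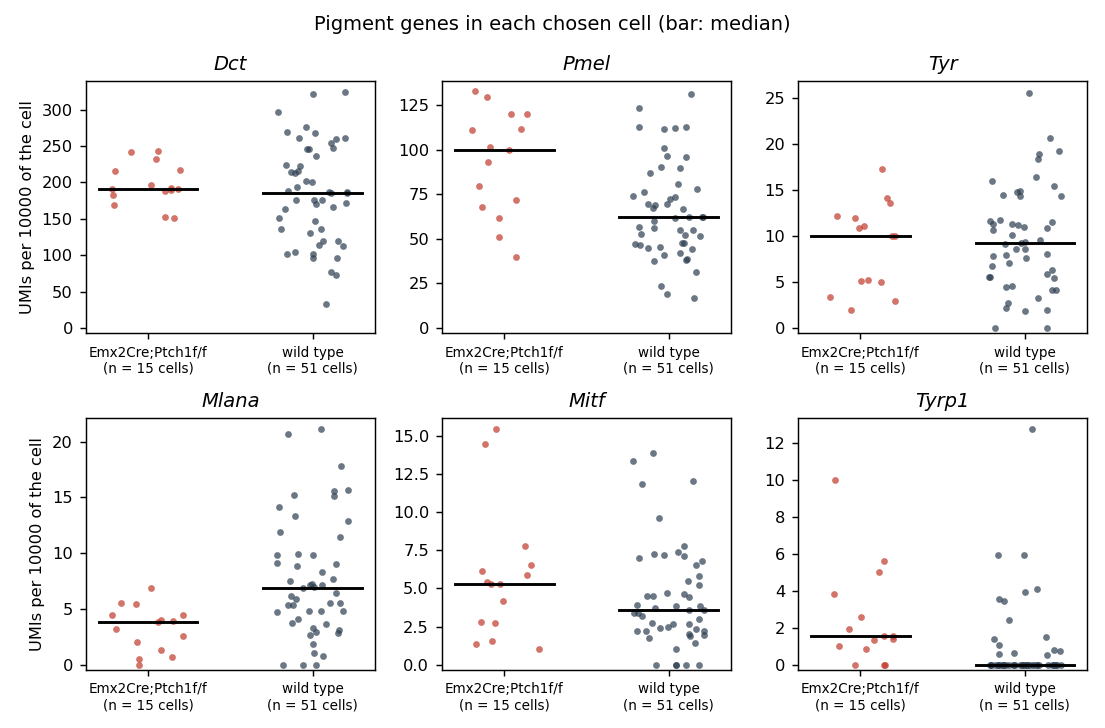
UMIs per 10000 of each chosen cell (y axis) for pigment genes, with mutant cells (n = 15) left of wild-type cells (n = 51) in each panel, 1 point per cell and a bar at the median. Dct and Pmel overlap widely, the Mlana median is 3.85 in mutant and 6.91 in wild-type cells, and the Tyrp1 median is 1.54 in mutant and 0 in wild-type cells.

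Dct and Pmel varied together more in wild-type than in mutant cells as they were captured. Spearman's correlation across cells of 1 library, given as a description, was 0.36 over 15 mutant cells and 0.76 over 51 wild-type cells. Dct plus Pmel against Ednrb gave 0.16 over mutant cells and 0.70 over wild-type cells, and against Ptgds 0.07 over mutant cells and 0.45 over wild-type cells. The cells of a library share its depth and its free RNA, and all values are fractions of the same cell total. The chosen mutant cells span a narrower range of Dct plus Pmel, from 203 to 372 per 10000 against 51.8 to 444 in wild-type cells. The Epcam step had removed mutant barcodes as low as 82.0 per 10000. The wild-type cells from 51.8 to 133 per 10000 held 39.4 to 61.0 UMIs per 10000 of marker genes of other lineages, and 1 to 3 Ednrb UMIs. Wild-type cells at 138 and 148 per 10000 held more of these markers, at 84.4 and 88.7, with 12 and 9 Ednrb UMIs. The wild-type cell at 134 per 10000 held only 0.786. The highest such marker value was 12.3 in mutant cells and 88.7 in wild-type cells. The part that wild-type cells with such markers play in the correlations was not tested.

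Some genes of pigment cells that the rule did not use were also high, and others were scarcely detected. With 10 CPM added, 109 of 3868 genes with at least 30 UMIs over the 66 cells (2.82%) were at least 4-fold higher than in all other barcodes in both libraries, and 15 (0.388%) were at least 4-fold lower. Outside the rule's genes, 103 of 3862 (2.67%) were at least 4-fold higher. Of 25 listed melanosome and pigment genes outside the rule, 16 were measured at that depth, and 11 of them were among those 103. The list's median log2 ratio over other barcodes was 2.82 in the mutant and 2.89 in the wild type, against 0.11 in the mutant and 0.15 in the wild type over all measured genes. Because the 30 UMIs were counted in the pigment cells, listed genes scarce there were not measured, here and in the lists below. Oca2 gave 1 mutant and 0 wild-type UMIs, and Slc7a11 gave 1 in each library. Of other unmeasured genes, Bloc1s6 had log2 ratios of -1.16 in the mutant and -0.34 in the wild type. Rab38 had 2.36 in the mutant and 1.84 in the wild type. Trpm1, a cation channel of melanocytes at chr7:64153835-64269775, was at 466 CPM (377 to 569) in mutant cells and 428 CPM (374 to 488) in wild-type cells, against 0.733 CPM in other mutant barcodes and 0.668 CPM in other wild-type barcodes.

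Several more pigment genes had nearly equal levels in the libraries. Slc45a2, a melanosome transporter, was at 383 CPM (304 to 478) in mutant and 382 CPM (331 to 439) in wild-type cells. Gpnmb, a melanosome glycoprotein related to Pmel, was at 432 CPM (347 to 532) in mutant and 430.3 CPM (376 to 490.5) in wild-type cells. Gpr143, the melanosome receptor mutated in ocular albinism in humans, was at 121 CPM in mutant and 102 CPM in wild-type cells. In all other barcodes these 3 genes stayed between 0.167 and 1.39 CPM.

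The highest ratios over other barcodes outside the rule were not only those of pigment synthesis. Ptgds, prostaglandin D synthase, led at 5693 CPM (5372 to 6028) in mutant cells and 5203 CPM (5008 to 5402) in wild-type cells, against 19.4 CPM in other mutant and 48.4 CPM in other wild-type barcodes. Its cells were far from alike: the lowest, median and highest values were 3.07, 62.8 and 150.2 UMIs per 10000 in mutant cells and 2.73, 43.5 and 181 in wild-type cells. Syt4, a synaptotagmin of secretory vesicles, was at 1364 CPM in mutant and 1735 CPM in wild-type cells, against 6.19 CPM in other mutant and 8.30 CPM in other wild-type barcodes. Mcoln3, a cation channel of endosomes and lysosomes whose varitint-waddler alleles cause deafness and coat colour dilution in mice, was at 252 CPM in mutant and 300 CPM in wild-type cells. Other barcodes held 2.98 CPM of Mcoln3 in the mutant and 5.21 CPM in the wild type.

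The other genes in the leading 20 were Pax3, Syngr1, Chsy3, Mgll, Bhlhe41, Met, Phyhipl, C2, Bace2, Plxnc1, Tspan10, Mt1 and Psen2, beside Trpm1, Slc45a2, Gpnmb and Gpr143. Bace2 cuts Pmel during fibril formation, and Plxnc1 is a semaphorin receptor. Bace2 was at 218 CPM in mutant and 240.1 CPM in wild-type cells, and Plxnc1 at 180 CPM in mutant and 219 CPM in wild-type cells. The lowest smaller-of-both-libraries log2 ratio among the 20 was 3.44, for Psen2, a presenilin of the gamma-secretase complex.

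**Figure D3:**
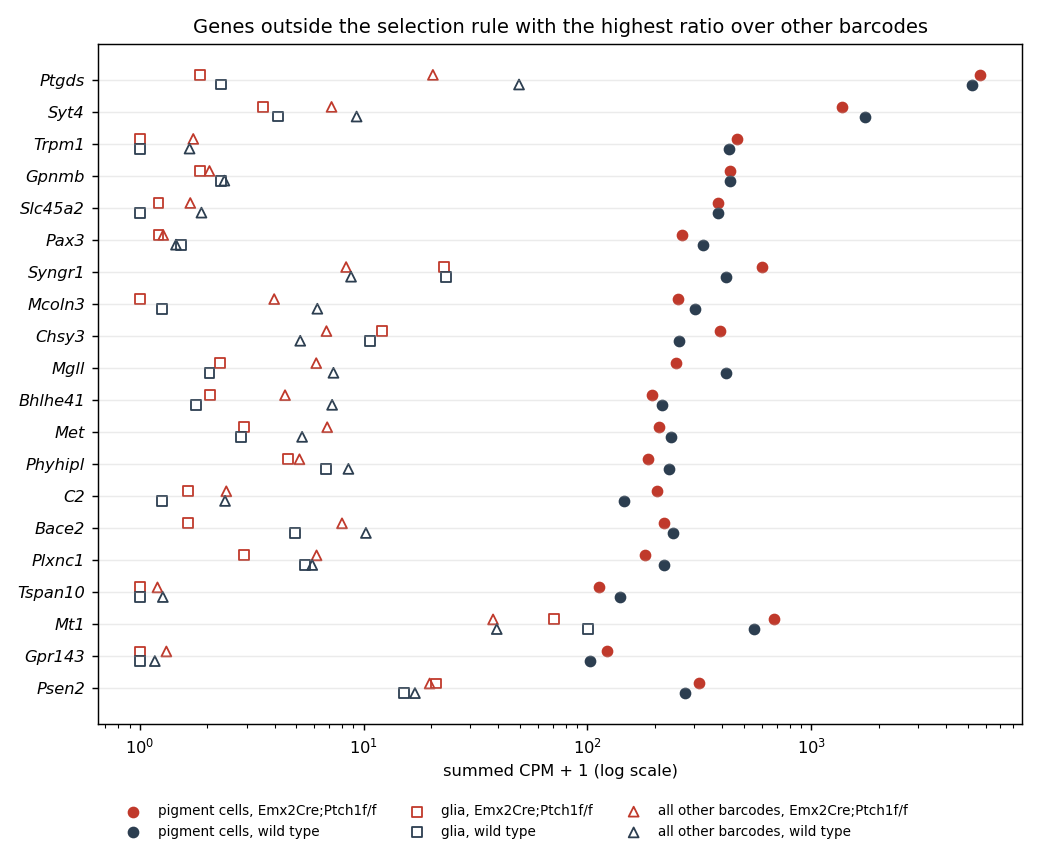
Summed CPM plus 1 (log scale, x axis) of the 20 genes outside the rule with the highest ratio over other barcodes (y axis), in pigment cells, glia (squares, defined below) and all other barcodes of each library. Ptgds stands at 5693 CPM in mutant and 5203 CPM in wild-type pigment cells, and all 20 genes have log2 ratios of at least 3.44 over other barcodes in both libraries.

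Among transcription factors and regulators of the melanocyte lineage, 10 of 20 listed genes were measured, and 3 of them, Pax3, Tfap2b and Ets1, were at least 4-fold over other barcodes in both libraries, beside 2.67% of all measured genes outside the rule. Pax3, which acts upstream of Mitf, was at 262 CPM (197 to 342) in mutant and 327 CPM (279 to 380) in wild-type cells, against 0.272 CPM in other mutant and 0.451 CPM in other wild-type barcodes. Sox10, which marks the whole glial and melanocyte lineage, was at 233 CPM (172 to 309) in mutant and 182 CPM (148 to 223) in wild-type cells. Glia, defined below, held Sox10 at 236 CPM in the mutant and 188 CPM in the wild type, so the level in pigment cells was close to theirs. Zeb2, a repressor with roles in glia and melanocytes, was at 248 CPM in mutant and 309 CPM in wild-type pigment cells and at 1221 CPM in mutant and 1187 CPM in wild-type glia.

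Some melanoblast receptors stood well above other barcodes, others did not, and the ligands were scarcely detected. Of 20 listed receptors and adhesion molecules, 8 were measured. Of these 8, Ednrb, Met and Itga4 were at least 4-fold over other barcodes in both libraries, beside 2.67% of all measured genes outside the rule. Igf1r was lower than in other barcodes, with log2 ratios of -1.02 in the mutant and -0.55 in the wild type. Ngfr gave 0 mutant and 1 wild-type UMIs, and Erbb2 1 mutant and 2 wild-type UMIs. Ednrb, the endothelin receptor needed for melanoblast migration, was at 1388 CPM (1232 to 1559) in mutant and 1235 CPM (1142 to 1335) in wild-type cells. It was found in every chosen cell, with a lowest, median and highest value of 4.74, 14.8 and 30.8 UMIs per 10000 in mutant cells and 1.04, 12.9 and 26.7 in wild-type cells. Glia held more of it, at 1813 CPM in the mutant and 2306 CPM in the wild type. Kit, the receptor for stem cell factor, was at 82.5 CPM (48.1 to 132) in mutant and 117 CPM (89.6 to 151) in wild-type cells, with a UMI in 8 of 15 mutant and 28 of 51 wild-type cells. Met, the receptor for hepatocyte growth factor, was at 209 CPM (151 to 281) in mutant and 234 CPM (195 to 280) in wild-type cells, against 5.87 CPM in other mutant and 4.31 CPM in other wild-type barcodes.

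None of the 13 listed ligands, among them Kitl, Edn3, Hgf and Nrg1, reached 30 UMIs. Summed over the 13 they came to 53.4 CPM (26.7 to 95.5) in mutant and 28.8 CPM (16.1 to 47.5) in wild-type cells, against 344 CPM in other mutant and 452 CPM in other wild-type barcodes. Hgf, Nrg1, Fgf2, Dll1 and Wnt3a were at 0 UMIs in all 66 cells.

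The label of intermediate cells was borne out only in part. Kcnj10, the channel by which mature intermediate cells are recognised, was at 0 UMIs in all 66 cells. Slc26a4 and Slc22a4 were also at 0, as were Kcnq1 and Kcne1, which belong to marginal cells. Of 22 listed genes of strial ion transport and of intermediate cells, 7 were measured and 4 were at least 4-fold over other barcodes in both libraries, among them Ptgds, Cd44 and Kcnj13, beside 2.67% of all measured genes outside the rule. Cd44, an adhesion receptor for hyaluronan, was at 184 CPM (131 to 253) in mutant and 179 CPM (144 to 219) in wild-type cells, against 13.4 CPM in other mutant and 9.17 CPM in other wild-type barcodes. The cells are called pigment cells here, since strial intermediate cells and other cochlear melanocytes cannot be told apart by these values.

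Gjb2, a connexin of gap junctions in supporting cells and the lateral wall, was at 199 CPM (143 to 270) in mutant and 121 CPM (93.01 to 155) in wild-type cells. Other barcodes held Gjb2 at 54.4 CPM in the mutant and 68.1 CPM in the wild type. Kcnj13, an inward rectifier potassium channel, was at 107 CPM (66.9 to 162) in mutant and 42.3 CPM (26.5 to 64.0) in wild-type cells. Each library gave 22 UMIs of Kcnj13, from 7 mutant and 11 wild-type cells. The 3 highest of 15 mutant cells held 77.3% of the mutant UMIs, so the mutant level of Kcnj13 rested on few cells. The 3 highest of 51 wild-type cells, a smaller part of their library's cells, held 50%.

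Glial cells were set beside the pigment cells because they share an origin in the neural crest. Glia were barcodes with no Epcam, under 5 Dct plus Pmel UMIs per 10000 and at least 20 UMIs per 10000 from 4 glial marker genes, Fabp7 and Egfl8 among them, a definition made after the data were seen, with 485 mutant and 502 wild-type barcodes. Since those 4 genes defined the glia, their levels in glia are a description. Against glia, 107 of 3868 genes (2.77%), or 101 of 3862 outside the rule (2.62%), were at least 4-fold higher in pigment cells in both libraries.

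Fabp7, a fatty acid-binding protein of immature glia, was at 102 CPM (63.1 to 156) in mutant and 175 CPM (141 to 215) in wild-type pigment cells, beside 5475 CPM in mutant and 7160.1 CPM in wild-type glia. Egfl8 gave 0 mutant and 1 wild-type UMIs, and Sox2, a factor of glial precursors, gave 0 mutant and 4 wild-type UMIs. Of 18 listed genes of glia and Schwann cell precursors, 6 were measured, and 2, Itga4 among them, were at least 4-fold over other barcodes in both libraries, beside the same 2.67%.

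Markers of other tissues were counted in the same cells. The 9 listed epithelial genes summed to 43.7 CPM in mutant and 24.98 CPM in wild-type cells, against 1362 CPM in other mutant and 1111 CPM in other wild-type barcodes, with Epcam at 0 by the rule. The 7 neuronal genes summed to 43.7 CPM in mutant and 63.4 CPM in wild-type cells, with Snap25 and Isl1 at 0. Other barcodes held 395 CPM in the mutant and 821 CPM in the wild type. The 8 macrophage genes summed to 14.6 CPM in mutant and 11.5 CPM in wild-type cells, with C1qb, C1qc and Tyrobp at 0. Their sums in other barcodes were 263 CPM in the mutant and 223 CPM in the wild type. The 7 endothelial genes summed to 38.8 CPM in mutant and 44.2 CPM in wild-type cells, against 188 CPM in other mutant and 159 CPM in other wild-type barcodes. The 6 pericyte and muscle genes summed to 4.85 CPM in mutant and 38.4 CPM in wild-type cells, where 13 UMIs of Rgs5 came from 1 cell. Other barcodes held 95.8 CPM of these in the mutant and 104 CPM in the wild type. The 8 erythroid genes summed to 151 CPM in mutant and 111 CPM in wild-type cells, beside 28184 CPM in other mutant and 19951 CPM in other wild-type barcodes.

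Of these lists of other tissues, the mesenchymal one had the highest sum in both libraries, and more so in the wild type. The 10 mesenchymal genes summed to 228 CPM (168 to 303) in mutant and 893 CPM (814 to 978) in wild-type cells. Other barcodes held them at 4099 CPM in the mutant and 5238 CPM in the wild type. Otor, a secreted protein of otic mesenchyme, gave 15 mutant UMIs and 347 wild-type UMIs, and made up most of the wild-type sum. Only 3 of the 15 mutant cells held Otor UMIs, and the 3 highest of 51 wild-type cells held 76.7% of the wild-type ones. Over 5 UMIs per 10000 from genes of other lineages, Otor included, were found in 4 of the 15 mutant cells and 16 of the 51 wild-type cells. Scrublet, a doublet caller, made 0 automatic calls in either library, so doublets were not removed. Of the barcodes it scored highest, 0 mutant and 5 wild-type ones were pigment cells.

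Ptch1 and the Hedgehog target genes were scarcely detected in pigment cells of either genotype. Ptch1, the floxed gene, gave 3 UMIs in 2 mutant cells, or 14.6 CPM (3.003 to 42.5), and 6 UMIs in 6 wild-type cells, or 11.5 CPM (4.23 to 25.1). Other barcodes held Ptch1 at 62.6 CPM in the mutant and 27.5 CPM in the wild type. These reads come from transcript ends and no source used here gives the position of the floxed exons, so the Ptch1 count does not check recombination. The target genes Gli1 and Hhip gave 1 and 0 UMIs in mutant cells and were both at 0 in wild-type cells. Emx2, which drives Cre, gave 0 mutant and 1 wild-type UMIs.

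Smo, the signal transducer of the pathway, and Gli3, one of its transcription factors, were the 2 of 7 listed Hedgehog genes with 30 or more UMIs. Smo was at 92.2 CPM in mutant and 49.95 CPM in wild-type cells, and Gli3 at 63.1 CPM in mutant and 38.4 CPM in wild-type cells. Neither differed by 2-fold. Both were lower than in the other barcodes of their library, with log2 ratios between -0.84 and -0.20.

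Between genotypes, few of the measured genes were 2-fold apart. Of 3868 genes, 51 (1.32%) were higher by 2-fold or more in mutant than in wild-type pigment cells and 121 (3.13%) were lower by as much, and the median log2 ratio over all of them was -0.04. These are counts past a fold, not of tested changes, and they scale with how many UMIs a gene has. In the melanosome and pigment list 0 of 16 measured genes were 2-fold higher and 1 was lower, with a median of 0.06. That gene was Gsta4, a glutathione transferase, at 87.4 CPM (51.8 to 138) in mutant and 217 CPM (179 to 261) in wild-type cells. The highest ratio in the list was that of Slc24a5, the melanosome exchanger, with 985 CPM (854 to 1130.5) in mutant and 597 CPM (533 to 668) in wild-type cells and a log2 ratio of 0.71.

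Each of the other lineage lists had 1 gene past 2-fold, beside 1.32% of all measured genes higher by 2-fold and 3.13% lower. Among regulators 0 of 10 were higher and 1 was lower, with a median of -0.20. It was Bcl2, a survival factor, with 4 mutant and 31 wild-type UMIs and a log2 ratio of -1.24, which became 0.03 when the Epcam limit was dropped. Among receptors and adhesion molecules 0 of 8 were higher and 1 was lower, with a median of -0.31. It was Itga4, the integrin alpha 4 chain, at 175 CPM (122 to 242) in mutant and 457 CPM (401 to 519) in wild-type cells. In other barcodes Itga4 lay the other way, at 29.1 CPM in the mutant and 17.2 CPM in the wild type. Itgb1, its usual partner chain, was at 238 CPM in mutant and 405 CPM in wild-type cells, with a log2 ratio of -0.75. Among intermediate cell genes 1 of 7 was higher, Kcnj13 with 1.16, and 0 were lower, with a median of 0.13. In the glial list 0 of 6 were higher and 1 was lower, again Itga4.

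The named genes with the highest ratios of mutant over wild type were of varied function. Gstp1, a glutathione transferase, was at 650.3 CPM (545 to 770.2) in mutant and 129 CPM (99.7 to 164) in wild-type cells, with a log2 ratio of 2.25. It was also higher in the other barcodes of the mutant library, at 36.4 CPM in the mutant and 9.60 CPM in the wild type. It has a near-identical neighbour, Gstp2, so its counts are uncertain. Neat1, the long noncoding RNA of paraspeckles, was at 437 CPM (351 to 537) in mutant and 133 CPM (103 to 168) in wild-type cells, with a log2 ratio of 1.65, and at 37.2 CPM in other mutant and 19.9 CPM in other wild-type barcodes.

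Dnajb9, a chaperone of the endoplasmic reticulum, was at 180 CPM (126 to 248) in mutant and 61.5 CPM (42.0 to 86.8) in wild-type cells, with a log2 ratio of 1.41, against -0.13 in other barcodes. Zbtb20, a zinc finger repressor, had a log2 ratio of 1.46 in pigment cells and 0.27 in other barcodes. Ddah1, which breaks down methylated arginine, had 0.96 in pigment cells and -0.23 in other barcodes. Junb, an immediate early gene, had 1.03 in pigment cells and -0.40 in other barcodes, and its direction turned to -0.29 when the Epcam limit was dropped. In the stress and immediate early list 1 of 10 measured genes, Junb, was 2-fold higher, beside 1.32% of all measured genes. In that list 0 were 2-fold lower, beside 3.13%, and the median was -0.24. The other genes named by the rule on this side were Hist1h2ap, Gm10076, Brd9 and Kcmf1.

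On the lower side the named genes were again of varied function. Stmn1, a microtubule regulator, was at 189 CPM (135 to 259) in mutant and 813 CPM (737 to 894) in wild-type cells, with a log2 ratio of -2.05. It was also lower in the other mutant barcodes, at 464 CPM in the mutant and 1091 CPM in the wild type. Car8, a carbonic anhydrase-related protein, was at 38.8 CPM (16.8 to 76.5) in mutant and 119 CPM (91.3 to 153) in wild-type cells, with a log2 ratio of -1.40, and was nearly absent from other barcodes, at 1.51 CPM in the mutant and 0.818 CPM in the wild type. Plcb4, a phospholipase C, had 8 mutant and 70 wild-type UMIs and a log2 ratio of -1.57, against 0.06 in other barcodes. Iqgap2, a scaffold protein, had 6 mutant and 61 wild-type UMIs, with -1.70 in pigment cells and -0.61 in other barcodes. Lars2, a mitochondrial leucyl-tRNA synthetase, had -1.42 in pigment cells and -0.19 in other barcodes.

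The ratios of the same genes in all other barcodes are set beside those in pigment cells. Of the 51 genes 2-fold higher in mutant pigment cells, 6 (11.8%) were also 2-fold higher in the other barcodes and 39 (76.5%) were higher there at all, beside 0.207% and 49.2% of all measured genes. Of the 121 lower genes, 9 (7.44%) were also 2-fold lower in the other barcodes and 70 (57.9%) were lower there at all, beside 0.259% and 50.8% of all measured genes. Hist1h2ap, a replication-dependent histone with many near-identical copies, had a log2 ratio of 2.28 in pigment cells and 2.67 in other barcodes. The gene model Gm10076 had 2.01 in pigment cells and 2.04 in other barcodes, and Gm42418 had -2.34 in pigment cells and -0.94 in other barcodes. Wdr89 had -2.12 in pigment cells and -1.52 in other barcodes, Gm11808 had -1.50 in pigment cells and -1.11 in other barcodes, and Ftl1-ps1 had -1.37 in pigment cells and -0.88 in other barcodes. Counts of such copies and gene models are uncertain, because reads can be divided among near-identical sequences, and the part that software version plays in them was not tested.

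**Figure D4:**
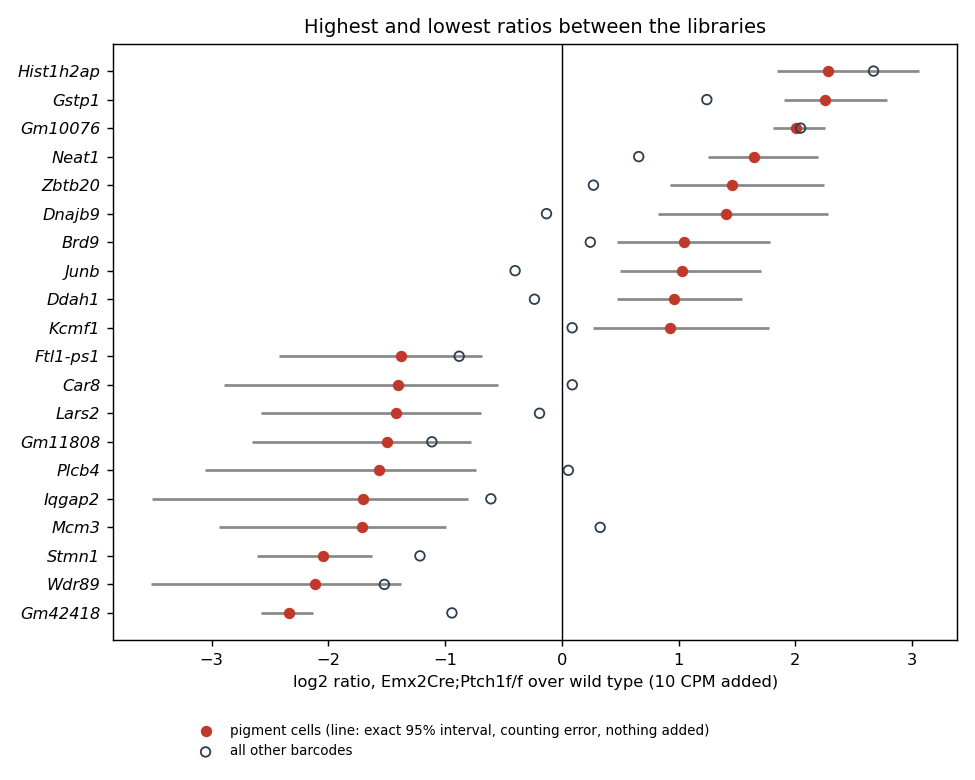
Log2 ratio of mutant over wild type, with 10 CPM added (x axis), for the 10 highest and 10 lowest genes within the naming limits given under processing (y axis), in pigment cells with counting intervals and in all other barcodes. Dnajb9 is at 1.41 in pigment cells and -0.13 in other barcodes, while Gm10076 is at 2.01 in pigment cells and 2.04 in other barcodes.

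The summed level of S phase genes was lower in mutant than in wild-type pigment cells. Of 22 listed S phase genes 19 were measured, of which 0 were 2-fold higher and 5 were 2-fold lower (Mcm3, Mcm5, Tyms, Rrm1 and Hells), beside 3.13% of all measured genes, with a median log2 ratio of -0.74 against -0.04 over all measured genes. The list summed to 1354 CPM (1200 to 1523) in mutant and 2436 CPM (2304 to 2574) in wild-type cells. In other barcodes it lay the other way, at 1299 CPM in the mutant and 1056 CPM in the wild type. The wild-type pigment cells stood above the other barcodes of their library. The mutant sum was above that of its other barcodes with all 15 cells and below it, at 887 CPM, without the deepest cell.

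Mcm3, a subunit of the replicative helicase, was at 53.4 CPM (26.7 to 95.5) in mutant and 198 CPM (161 to 240.0) in wild-type cells, with a UMI in 3 of 15 mutant and 28 of 51 wild-type cells. Tyms, which makes thymidylate, had 12 mutant and 78 wild-type UMIs, with a log2 ratio of -1.23. Pcna, the sliding clamp of the replication fork, was closer, at 189 CPM in mutant and 244 CPM in wild-type cells. Prim1, a primase subunit, had the highest ratio in the list, at 0.44.

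Cell by cell, S phase genes had a lowest, median and highest value of 2.21, 6.76 and 35.8 UMIs per 10000 in mutant cells and 0, 16.4 and 69.7 in wild-type cells. The ranges overlapped, and the highest mutant cell was also the deepest one, with 128 S phase UMIs. Without cells holding other lineages the sums were 904 CPM in mutant and 2367 CPM in wild-type cells, and with all cells weighted alike they were 996 CPM in mutant and 2125 CPM in wild-type cells. The mutant sum stayed below the wild-type sum in these settings and without the deepest cell. The part that cell number, depth and the labels of kit and software play in this difference was not tested.

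Genes of G2 and M phase were given in the same way, and the difference between this list and the S phase list was not tested. Of 22 listed, 13 were measured. Cenpa was 2-fold higher and Ccna2 and Ube2c were 2-fold lower, beside 1.32% higher and 3.13% lower over all measured genes. The list median was -0.03, and -0.36 with cells weighted alike. The list summed to 1412 CPM (1255 to 1584) in mutant and 1579 CPM (1473 to 1691) in wild-type cells. Without the Epcam limit the mutant sum was 859 CPM and the wild-type sum 1444 CPM. Cell by cell the lowest, median and highest values were 0, 1.61 and 59.6 UMIs per 10000 in mutant cells and 0, 5.97 and 88.7 in wild-type cells, with a lower median in the mutant and ranges that overlapped. The mutant sum came from few cells: the 3 highest of 15 held 91.4% of its UMIs. In the wild type the 3 highest of 51 held 40.3%. Since 3 cells are a smaller part of 51 than of 15, these shares do not compare the libraries. At least 10 UMIs per 10000 from these genes were found in 3 of 15 mutant cells (20.0%, 4.33 to 48.1%) and 20 of 51 wild-type cells (39.2%, 25.8 to 53.9%). These counting intervals overlap, and a difference between genotypes was not tested.

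The proliferation markers Mki67 and Top2a were compared at equal depth. With every cell thinned to 2000 UMIs, 5 of 15 mutant cells (33.3%, 11.8 to 61.6%) and 16 of 51 wild-type cells (31.4%, 19.1 to 45.9%) had a UMI of either gene. Thinned to 1000 UMIs, 2 of 15 mutant cells (13.3%, 1.66 to 40.5%) and 13 of 51 wild-type cells (25.5%, 14.3 to 39.6%) had one. Unthinned, the shares were 46.7% in the mutant and 62.7% in the wild type, at median depths of 12455 UMIs in mutant and 9538 UMIs in wild-type cells. Glia thinned to 2000 UMIs had 30.3% in the mutant and 31.5% in the wild type, and mesenchymal barcodes 19.2% in the mutant and 22.8% in the wild type. The mutant share was the higher at 2000 UMIs and the lower at 1000 UMIs and unthinned. With 1 library per genotype, a difference between genotypes in the share of Mki67 or Top2a cells was not tested.

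**Figure D5:**
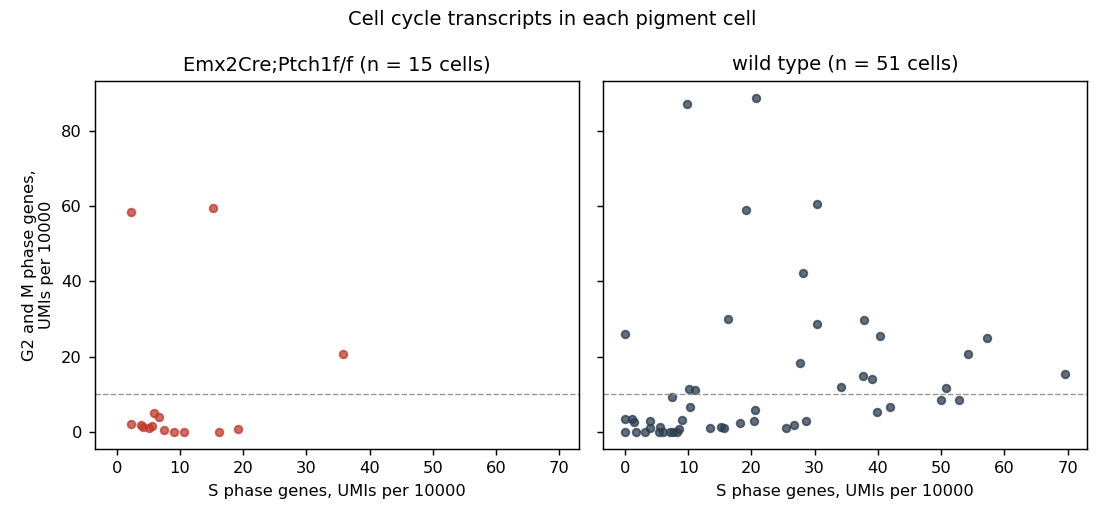
S phase gene UMIs per 10000 (x axis) against G2 and M phase gene UMIs per 10000 (y axis) in each mutant (left, n = 15) and wild-type (right, n = 51) pigment cell, 1 point per cell, with a dashed line at 10. Above the line lie 3 mutant and 20 wild-type cells, and the S phase median is 6.76 in mutant and 16.4 in wild-type cells.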

How the data were processed

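Single-cell RNA sequencing with a 10x Genomics 3′ kit was done on 1 library per genotype. The matrices that the authors deposited hold whole-number UMI counts, not normalized, with 32285 genes in rows. The submitters' processing notes name Cell Ranger 6.0.0 and mm10, while per the file headers the mutant counts came from Cell Ranger 5.0.1 and the wild-type counts from 6.0.0. No source used here states the step that separated cells from empty droplets.

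From these counts, barcodes were filtered and chosen as stated in the report, counts were summed over the chosen cells of a library and given as CPM of the sum, and ratios were taken with 10 CPM added for genes with at least 30 UMIs over the 66 cells. With 1 library per genotype no test across genes was possible. Genes named for a ratio had at least 60 UMIs over the chosen cells and a UMI in at least 1 in 3 of the cells where higher. For the ratio over other barcodes this held in both libraries, and the 20 highest genes outside the rule were taken. Between genotypes the 10 highest and lowest were taken. These kept the same direction under equal cell weights, median-of-ratios scaling and without cells holding other lineages. In the library where they were higher, their CPM was no more than 2-fold below that of other barcodes. Mitochondrial, ribosomal protein, haemoglobin, sex chromosome and rule genes were left out of them. Some genes with larger ratios, such as Tyrp1 of the rule, are therefore not among them. Members and lists were chosen with earlier results of these data known. Mesenchymal barcodes had no Epcam and at least 10 UMIs per 10000 from Col1a1, Col1a2 and Col3a1. Genes named as examples beyond these rules were list members chosen after their values were seen. GENCODE vM21 on GRCm38 gave coordinates for 32235 of the gene identifiers. The ratio and interval step was tested on simulated data. Python 3.11.15, numpy 2.4.6, scipy 1.17.1, pandas 2.3.3 and scanpy 1.11.5 (Scrublet) were used. The depth of the chosen cells was 206047 UMIs in the mutant and 520518 in the wild type, so a level of 1 UMI is coarser in the mutant. Some genes of the lists are not reported here by name and remain in the list counts. Alternatives are given in the closing section.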

Additional observations from a re-analysis of the deposited data

How the results depend on the processing

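No paired analysis was possible because each genotype has 1 library. That is the main limit, since genotype, kit label and software version cannot be told apart. Depth and the 15 mutant cells are further limits, since a gene with few UMIs can pass 2-fold by counting error alone. The 51 higher and 121 lower genes became 221 and 347 with at least 10 UMIs per gene, and 5 and 23 with at least 100. The higher count was 81 with 1 CPM added, and the counts were 16 higher and 25 lower with 50 CPM added. It was 99 higher with no limit on Epcam. The lower count was 183 without the deepest mutant cell and 184 with cells weighted alike. The 109 genes 4-fold over other barcodes, the rule's included, became 33 with 50 CPM added and 69 with at least 100 UMIs.

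Without cells holding over 5 UMIs per 10000 of other lineages, the wild-type share was 0.543%, the S phase sum was 904 CPM in the mutant, and the G2 and M sum was 1863 CPM in the wild type. With no limit on Epcam, added after the data were seen, the mutant share was 0.267%, the wild-type S phase sum 2235 CPM, and the G2 and M sum 859 CPM in mutant and 1444 CPM in wild-type cells. Leaving out the deepest mutant cell, also added later, gave a mutant S phase sum of 887 CPM. Weighting cells alike gave S phase sums of 996 CPM in mutant and 2125 CPM in wild-type cells, and G2 and M sums of 1049 CPM in mutant and 1407 CPM in wild-type cells. Without thinning, 62.7% of wild-type cells had a Mki67 or Top2a UMI. The S phase list median was -1.30 without cells holding other lineages and -1.44 without the deepest mutant cell, and the G2 and M median was -0.70 with no limit on Epcam. The log2 ratios of Bcl2 (0.026) and Junb (-0.29) changed sign with no limit on Epcam, and the cause was not tested. Of the remaining single-gene values, 27 moved and 1861 did not move by more than their counting interval. Part of the 1861 could not move. The UMI minimum per gene does not enter a gene's ratio, and the higher UMI floors per barcode kept the same cells.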

Other observations

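Among the 20 genes leading over other barcodes, some outside pigment synthesis are given here with their levels in both libraries. Mgll, a lipase that breaks down monoacylglycerols, was at 248 CPM (184 to 325) in mutant and 415 CPM (361 to 474) in wild-type pigment cells, with a log2 ratio of -0.72, which was -1.22 without cells holding other lineages. Mt1, a metallothionein, was at 679 CPM in mutant and 555 CPM in wild-type cells. C2, a complement component, was at 204 CPM in mutant and 144 CPM in wild-type cells, and Chsy3, a chondroitin synthase, at 388 CPM in mutant and 256 CPM in wild-type cells.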
